A study of Mus musculus with 3 samples.

Results

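Natural killer (NK) and type 1 innate lymphoid cell (ILC1)-like barcodes were picked from single-cell RNA profiles of mouse liver by the transcripts they held. A barcode qualified with at least 1 unique molecular identifier (UMI, a tag that counts 1 captured RNA molecule) summed over 8 genes, Ncr1, Klrb1c, Klre1, Eomes, Klra8, Klra4, Klri2 and Gzma. It also had to hold 0 UMIs of Cd3d, Cd3e, Cd3g, Trac, Clec4f, Cd79a, Kdr and Siglech, genes of T cells, Kupffer cells, B cells, endothelium and plasmacytoid dendritic cells, and at most 40% mitochondrial UMIs. In all, 191 of 29572 kept barcodes qualified (0.646%), out of 30000 deposited. The levels of these 8 genes chose the barcodes and are given as a description.

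The mice were male, 9 weeks old and of the C57BL/6 strain. All were Ifih1-/- and so lacked MDA5, which senses long duplex RNA in the cytosol, and all carried Alb-Cre, a Cre recombinase under the albumin promoter, which is active in hepatocytes. NK cells and ILC1 are not known to make albumin, and whether the floxed gene was cut in them was not measured. The 3 livers differed at Adar1, the gene of an enzyme that edits double-stranded RNA, and had the genotypes flox/flox (81 qualifying barcodes), wt/flox (62) and wt/wt (48). Each genotype had 1 library, so no difference has a replicate check. All intervals are exact, at 95%, and cover counting error only. The livers were perfused with collagenase, spun at low speed and passed over Percoll, steps that set part of the share of every blood cell.

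NK cells and ILC1 are group 1 innate lymphoid cells, which kill infected or altered cells and release interferon gamma without a rearranged antigen receptor. They read target cells through activating and inhibitory lectin-like receptors encoded together in the NK gene complex, and kill with perforin and granzymes from cytotoxic granules. Mouse liver holds circulating conventional NK cells, which need EOMES and carry Ly49 receptors, and liver-resident ILC1, which need T-bet and carry CD49a, CXCR6 and TRAIL. Their numbers and activity respond to interleukin-15, interleukin-18 and type I interferon.

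Transcripts of the targeted gene were counted first. Adar (chr3:89715022-89753446, mm10) had 3 UMIs in qualifying barcodes of the library labelled flox/flox, 3 in wt/flox and 0 in wt/wt, too few for a ratio, with 1.71, 0.80 and 0.34 expected from the hepatocyte RNA described below. In T barcodes, taken here as barcodes with a CD3 or T cell receptor alpha UMI and none of the other barred genes, Adar stood at 61.0, 36.2 and 17.2 CPM in flox/flox, wt/flox and wt/wt, where CPM is the share of a gene in the summed UMIs of the barcodes, scaled to 1000000. These levels rest on 26, 14 and 4 UMIs, and hepatocyte RNA would make up 50.2%, 58.3% and 57.4% of all T barcode UMIs. In the hepatocyte-reference barcodes defined below, Adar had 283, 127 and 84 UMIs, or 35.2, 17.7 and 10.8 CPM. It was thus highest in the library labelled flox/flox there too. A tag at the 3′ end can lie outside the deleted part, and the labels do not name the floxed exons, so these levels do not check the labels. Every direction below rests on the labels. Ifih1 had 0 UMIs in the qualifying barcodes of all 3 libraries, where the interval reaches up to 43.2, 57.0 and 78.7 CPM in flox/flox, wt/flox and wt/wt.

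The libraries held between 9744380 and 10756790 UMIs over 10000 barcodes each. Qualifying barcodes held a median of 922 UMIs in flox/flox, 944 in wt/flox and 903.5 in wt/wt, and 85411, 64722 and 46851 UMIs in all. The median mitochondrial share was 5.75% in flox/flox, 3.90% in wt/flox and 3.79% in wt/wt, and its part in the results was not tested. The 12 hepatocyte markers took 5.82%, 8.53% and 7.76% of UMIs in flox/flox, wt/flox and wt/wt, against 10.2%, 12.2% and 11.5% in hepatocyte-reference barcodes, which had 0 UMIs of the 16 genes of the rule, of Ptprc and of Lyz2, C1qa, Csf1r, S100a8, Stab2, Dcn, Cd74, Hba-a1 and Krt19. Scaled by that ratio, hepatocyte RNA would make up 56.9% of the UMIs of qualifying barcodes in flox/flox, 69.7% in wt/flox and 67.4% in wt/wt. Of 1625 genes with at least 20 UMIs, called measured below, 990 (60.9%) had at least 50% of their UMIs expected from hepatocyte RNA. The expected number or share is given below beside most named lists and genes where it was over 25% of the UMIs. Doublets were not called. Between pairs of libraries 27, 32 and 20 barcode sequences were shared, and 1 qualifying barcode, in flox/flox, carried such a sequence.

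Genes that the rule did not use marked these barcodes as cytotoxic lymphocytes, without telling NK cells from T cells. A set of 12 companion genes of cytotoxic lymphocytes, with Nkg7, Klrk1, Klrd1, Il2rb, Ccl5, Prf1 and Gzmb among them, was detected in 179 of 191 qualifying barcodes (93.7%), against 0.930% of 23223 hepatocyte-reference barcodes. By library the share was 92.6% in flox/flox, 93.5% in wt/flox and 95.8% in wt/wt, beside 79.8%, 73.3% and 78.3% of T barcodes. Ptprc, the pan-leukocyte gene of CD45, was seen in 109 of the 191 (57.1%). Of the markers of other types, the ILC2 and ILC3 list had 4, 3 and 2 UMIs in flox/flox, wt/flox and wt/wt, the Kupffer list 12, 0 and 2, and the endothelial list 4, 0 and 2. For the ILC2 and ILC3 list 0.95, 1.36 and 0.68 UMIs were expected from hepatocyte RNA. For the Kupffer list the expected numbers were 1.13, 0.62 and 0.52. T cell markers still summed to 44, 24 and 24 UMIs in flox/flox, wt/flox and wt/wt, with those of the rule at 0. Higher counts were those of dendritic cell markers, at 35, 35 and 17 UMIs with 17.7, 12.3 and 6.09 expected from hepatocyte RNA, of B and plasma cell markers, at 46, 1 and 7, and of monocyte or macrophage markers, which are described with the mixed barcodes.

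The edge of the rule was soft. Of the qualifying barcodes, 72 held exactly 1 UMI of the 8 genes, and 87.5% of them held a companion gene, while 86 held 3 or more, and 98.8% of those did. The share with exactly 1 UMI was 44.4% in flox/flox, 35.5% in wt/flox and 29.2% in wt/wt. Just outside lay 224 barcodes with 0 UMIs of the 8 genes and at least 2 companion genes, of which 105 were in flox/flox, 61 in wt/flox and 58 in wt/wt. A further 170 barcodes held a UMI of the 8 genes but were barred, 161 of them by CD3 or T cell receptor alpha transcripts. At this depth a cytotoxic T cell without a captured CD3 transcript cannot be told apart from an NK cell.

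The NK and ILC1-like share of kept barcodes was 0.829% in flox/flox (interval 0.659 to 1.03%), 0.625% in wt/flox (0.480 to 0.801%) and 0.486% in wt/wt (0.358 to 0.644%). The flox/flox interval did not overlap that of wt/wt and overlapped that of wt/flox. With at least 2 UMIs of the 8 genes required, the flox/flox and wt/wt intervals overlapped (0.336 to 0.616% and 0.238 to 0.481%), as they did with 1000 UMIs per barcode (0.547 to 1.13% and 0.309 to 0.848%) and without the mixed barcodes described below (0.568 to 0.915% and 0.324 to 0.598%). T barcodes ran in the same order, at 3.74%, 3.397% and 2.004% in flox/flox, wt/flox and wt/wt. Among NK, ILC1 and T barcodes together, the NK and ILC1-like share was 18.1% (14.7 to 22.01%) in flox/flox, 15.5% (12.1 to 19.5%) in wt/flox and 19.5% (14.8 to 25.0%) in wt/wt, and these intervals overlapped. A UMI of the 8 genes also occurred in 23.8% of T barcodes in flox/flox (19.5 to 28.5%), 12.5% in wt/flox (9.13 to 16.5%) and 15.2% in wt/wt (10.5 to 20.9%). The smaller number of barcodes of a type and less RNA captured per cell could not be told apart.

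**Figure D1:**
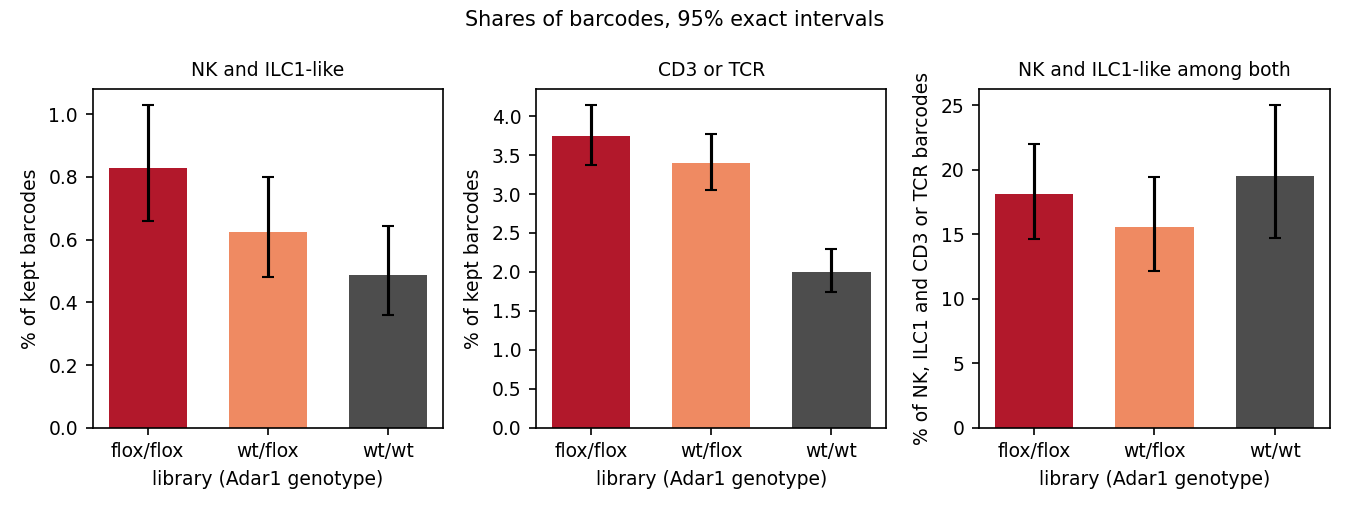
Bars give the percentage of kept barcodes that were NK and ILC1-like (left) or held CD3 or T cell receptor alpha transcripts (middle), and the NK and ILC1-like percentage of both together (right), for the flox/flox, wt/flox and wt/wt libraries; error bars are exact 95% counting intervals. The NK and ILC1-like share was 0.829%, 0.625% and 0.486% of kept barcodes. Its share of both kinds of barcode together stayed between 15.5% and 19.5% with overlapping intervals.

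The 8 genes differed in how many barcodes they brought in. Gzma, a granule protease with tryptase activity, was present in 104 of the 191, Klrb1c (NK1.1) in 67, the lectin-like receptor gene Klre1 in 60, and Ncr1 (NKp46), an activating receptor that is close to specific for these cells, in 26. Klri2 was present in 26, the Ly49 receptor genes Klra8 and Klra4 in 22 and 18, and the transcription factor gene Eomes in 16. A single one of the 8 was seen in 99 barcodes, 2 in 52, 3 in 27, and 4 or more in 13. The 5 genes named Klr lie within 1.35 Mb of each other on chromosome 6 (chr6:128778485-130129898, mm10), in the NK gene complex, whereas Ncr1 lies on chromosome 7, Eomes on chromosome 9 and Gzma on chromosome 13. Ly49 genes are close copies of one another, so their counts are uncertain as to member.

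Gzma was the most abundant of them. It had 87 UMIs in flox/flox, 90 in wt/flox and 98 in wt/wt, or 1019 CPM (816 to 1256), 1391 CPM (1118 to 1709) and 2092 CPM (1698 to 2549). Since Gzma chose barcodes, and the share admitted on 1 UMI differed between libraries, no difference between libraries is read from these levels. Gzma was seen in 43.2% of flox/flox, 61.3% of wt/flox and 64.6% of wt/wt barcodes, and in 40.0%, 59.7% and 60.4% after thinning to 700 UMIs, against 0% of hepatocyte-reference barcodes, which the definition of those barcodes sets. The other 7 genes had between 3 and 34 UMIs per library. Ncr1 had 15, 10 and 4 UMIs and Eomes 11, 4 and 3 in flox/flox, wt/flox and wt/wt, whereas Klri2 had 10, 9 and 11.

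Genes of cytotoxic lymphocytes held the first 4 places among genes outside the rule ranked over all other kept barcodes. Over the rest, the log2 ratio was 5.64 for the chemokine gene Ccl5 (chr11:83525778-83530518), 5.48 for Klrk1 (NKG2D), 5.11 for the granule protein gene Nkg7 and 4.69 for Il2rb, the shared beta chain of the interleukin-2 and interleukin-15 receptors. They were followed by Ms4a4b (4.04), Gimap3 (3.65), Ptprc (3.49) and Gimap4 (3.41), genes that T cells also express, and the other 12 of the 20 leading genes held, beside the adaptor genes Fcer1g and Tyrobp, widely expressed genes such as Tmsb4x, Cd52 and Hmgb2. Ccl5 was seen in 76.5% of flox/flox, 75.8% of wt/flox and 83.3% of wt/wt barcodes, and in 50.0%, 40.9% and 49.0% of T barcodes. These contrasts share the rule's choice of barcodes and describe them.

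Against T barcodes of the same libraries, the signal adaptors set them apart. Fcer1g, an adaptor that also pairs with the Fc receptor CD16 and with NKp46, had a log2 ratio of 3.69 (3.16 to 4.24) over T barcodes, and Tyrobp (DAP12), the adaptor of activating lectin-like receptors, 3.26 (2.73 to 3.81). Fcer1g was seen in 25.9%, 45.2% and 35.4% of NK and ILC1-like barcodes in flox/flox, wt/flox and wt/wt, and in 3.28%, 4.45% and 3.54% of T barcodes. Perforin (Prf1) had a ratio of 3.23, Zeb2 2.57, Irf8 2.32, Il18rap 2.17 and Gzmb 1.19, while Il7r, the interleukin-7 receptor gene, had -1.30 and Srgn, the proteoglycan of granules, -0.78. Of all measured genes 9.85% were at least 1.5-fold higher than in T barcodes and 2.95% at least 1.5-fold lower. Of 9 measured companion genes 7 were higher and 0 lower, and of 9 measured adhesion and trafficking genes 2 were higher and 3 lower. T barcodes were chosen by CD3, so part of this contrast is set by definition.

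**Figure D2:**
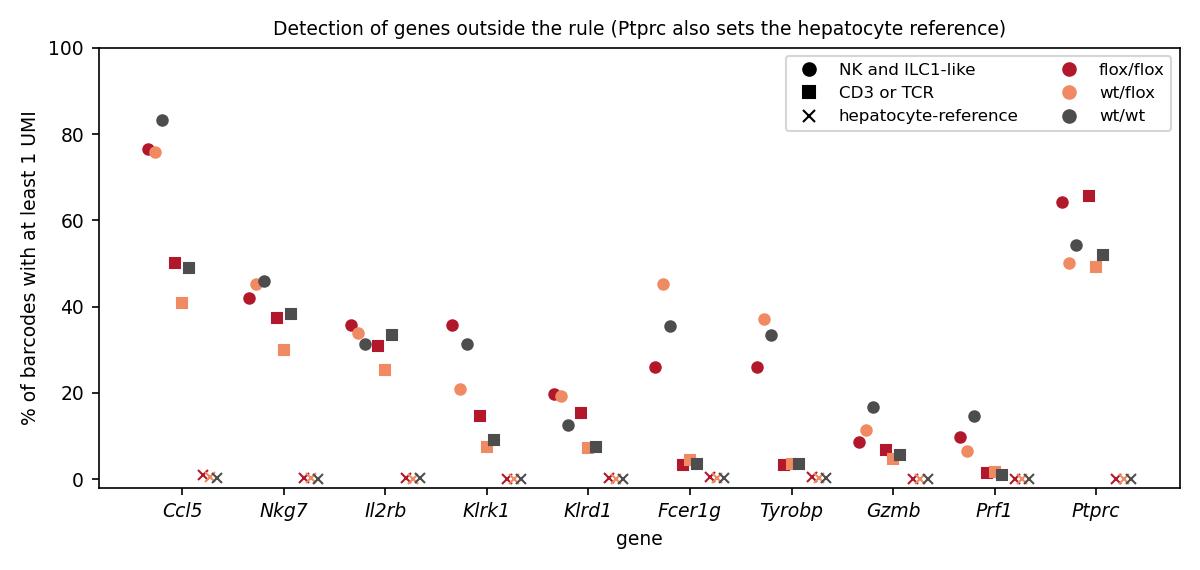
Each point gives the percentage of barcodes with at least 1 UMI of a gene, for NK and ILC1-like barcodes (circles), CD3 or T cell receptor barcodes (squares) and hepatocyte-reference barcodes (crosses), coloured by library. Fcer1g and Tyrobp separated NK and ILC1-like from T barcodes in all 3 libraries, Prf1 intervals overlapped in wt/flox (1.79 to 15.7% and 0.656 to 3.83%), and Il2rb was seen in 31.2 to 35.8% of NK and ILC1-like barcodes and in 25.2 to 33.3% of T barcodes.

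Killer cell receptors outside the rule were compared next between genotypes. The list held 183 UMIs in flox/flox, 80 in wt/flox and 65 in wt/wt, or 2143, 1236 and 1387 CPM, with under 1% expected from hepatocyte RNA. Its summed log2 ratio was 0.63 (0.21 to 1.06) for flox/flox against wt/wt, 0.79 (0.41 to 1.19) against wt/flox and -0.17 (-0.66 to 0.33) for wt/flox against wt/wt. Of 5 measured members 3 were at least 1.5-fold higher in flox/flox than in wt/wt and 3 than in wt/flox, and 0 were lower in either. Klrc1, higher in both, reached the 20 UMI minimum only through its flox/flox UMIs, so these counts are partly set by that minimum. Over all measured genes 21.2% were at least 1.5-fold higher and 20.6% lower in flox/flox against wt/wt, and 20.4% higher and 18.8% lower against wt/flox, so that such a fold is common at these counts. In T barcodes the same list had ratios of 0.70 (0.43 to 0.97) and 0.74 (0.51 to 0.97), so it was higher in flox/flox there as well, and the few such UMIs of hepatocyte-reference barcodes had ratios of 0.85 (0.31 to 1.40) and 0.98 (0.42 to 1.56). Without the mixed barcodes described below, the list had 0.78 and 0.85.

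Klrc1 (chr6:129666015-129678973, mm10), which encodes NKG2A, the inhibitory partner of CD94 that recognises the class Ib molecule Qa-1, had the largest ratio of the measured receptors against wt/flox. It had 22 UMIs in 20 flox/flox barcodes, 4 in 4 wt/flox barcodes and 5 in 4 wt/wt barcodes. The log2 ratio was 1.27 (-0.17 to 3.03) against wt/wt and 2.06 (0.50 to 4.06) against wt/flox, so the interval lay above 0 against wt/flox and held 0 against wt/wt. Klrd1, the gene of CD94 itself, had 26, 12 and 8 UMIs in flox/flox, wt/flox and wt/wt and ratios of 0.83 and 0.72. Klrc2 (NKG2C), an activating partner of CD94 and a near copy of Klrc1, had 19, 13 and 9 UMIs and ratios of 0.21 and 0.15. Klrk1, the activating receptor for stress ligands, had 34, 16 and 17 UMIs and ratios of 0.13 and 0.69. Klrb1b and Klrb1f, of the family of NK1.1, fell under the 20 UMI minimum, with 12, 1 and 4 and with 12, 4 and 2 UMIs in flox/flox, wt/flox and wt/wt.

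Signal adaptors and kinases stood the other way. The list had 144 UMIs in flox/flox, 141 in wt/flox and 121 in wt/wt, and a summed log2 ratio of -0.62 (-0.97 to -0.25) against wt/wt and -0.37 (-0.71 to -0.02) against wt/flox, with 1.92%, 2.37% and 1.77% expected from hepatocyte RNA. Fcer1g (chr1:171229572-171234365, mm10) had 29 UMIs in 21 flox/flox barcodes, 43 in 28 wt/flox barcodes and 30 in 17 wt/wt barcodes. Its log2 ratio was -0.92 (-1.70 to -0.13) against wt/wt and -0.97 (-1.70 to -0.26) against wt/flox, and both intervals lay below 0. Fcer1g was among the genes ranked by their ratios, and these intervals do not allow for that choice. Tyrobp had 27, 34 and 24 UMIs in flox/flox, wt/flox and wt/wt and ratios of -0.70 (-1.54 to 0.16) and -0.73 (-1.52 to 0.04). Hcst (DAP10), the adaptor of NKG2D, had 22, 8 and 13 UMIs and ratios of -0.11 and 1.06. The kinase genes Txk and Fyn had -0.54 and -0.45 against wt/wt and -0.08 and 0.38 against wt/flox. By direction, 0 of 5 measured members were at least 1.5-fold higher against wt/wt and 2 lower, and 1 was higher against wt/flox and 2 lower. In T barcodes the list had ratios of 0.08 (-0.12 to 0.27) and 0.15 (-0.02 to 0.31).

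Cytotoxic granule and death ligand genes other than Gzma had summed ratios whose intervals held 0 in each comparison. The list had 188 UMIs in flox/flox, 137 in wt/flox and 127 in wt/wt, and summed log2 ratios of -0.30 (-0.63 to 0.04) against wt/wt and 0.06 (-0.27 to 0.38) against wt/flox, while wt/flox against wt/wt had -0.36 (-0.72 to 0.00). Of its UMIs 15.6% in flox/flox, 18.3% in wt/flox and 13.2% in wt/wt were expected from hepatocyte RNA. Under other settings some intervals against wt/wt lay below 0. Where Gzma did not qualify barcodes, the ratio was -0.41 (-0.76 to -0.05) for flox/flox and -0.65 (-1.06 to -0.25) for wt/flox. With at least 2 UMIs of the 8 genes it was -0.14 (-0.53 to 0.24) and -0.51 (-0.93 to -0.09). With a companion gene or Ptprc required it was -0.37 (-0.72 to -0.03) and -0.32 (-0.70 to 0.05). That last setting chose barcodes partly by Nkg7, a gene of the list. With hepatocyte RNA subtracted, flox/flox stood at -0.74 against wt/wt, or -0.39 relative to the median of all measured genes, with no interval. Of 8 measured members 1 was at least 1.5-fold higher and 1 lower in flox/flox than in wt/wt, and 2 were higher and 0 lower than in wt/flox. Srgn, higher in both, reached the 20 UMI minimum only through its flox/flox UMIs. Nkg7 (chr7:43437073-43438249), which acts in granule release, had 56, 38 and 51 UMIs in flox/flox, wt/flox and wt/wt and ratios of -0.73 (-1.30 to -0.16) against wt/wt and 0.16 (-0.46 to 0.79) against wt/flox, and -0.89 (-1.54 to -0.26) for wt/flox against wt/wt, so wt/wt was the high library. Gzmb, the protease that starts apoptosis in the target, had 10, 10 and 8 UMIs, and Prf1, the pore former, 11, 5 and 7. Srgn had 21, 9 and 7 UMIs and ratios of 0.72 and 0.82. Lamp1, a lysosome membrane gene, had 20, 18 and 11 UMIs, but 18.7, 15.8 and 11.3 of them were expected from hepatocyte RNA.

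Of the chemokines and cytokines made by NK cells, Ccl5 alone was measured, with 294 UMIs in flox/flox, 171 in wt/flox and 183 in wt/wt. Its level was 3442, 2642 and 3906 CPM, and its log2 ratio -0.18 (-0.45 to 0.09) for flox/flox against wt/wt, 0.38 (0.10 to 0.66) against wt/flox and -0.56 (-0.87 to -0.26) for wt/flox against wt/wt. The wt/flox library was thus the low one. Xcl1, the ligand of XCR1 on cross-presenting dendritic cells, had 7, 4 and 4 UMIs. Of the 14 list genes 5 had 0 UMIs.

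Cytokine receptor genes had 173, 95 and 79 UMIs in flox/flox, wt/flox and wt/wt and summed log2 ratios of 0.26 (-0.13 to 0.67) against wt/wt and 0.46 (0.10 to 0.84) against wt/flox. Of 6 measured members 2 were at least 1.5-fold higher and 1 lower against wt/wt, and 4 were higher and 0 lower against wt/flox. Il2rb had 41, 27 and 21 UMIs and ratios of 0.10 and 0.20, the smallest of the measured receptors against wt/flox. Il18rap, a chain of the interleukin-18 receptor, had 16, 2 and 10 UMIs and ratios of -0.19 and 2.01. Il7r had 17, 3 and 4 UMIs and ratios of 1.22 and 2.10, and Jak1, the kinase below many of these receptors, had 37, 24 and 11 UMIs and ratios of 0.88 and 0.22.

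Transcription factors of group 1 innate lymphoid cells showed no common direction, with summed log2 ratios of 0.02 (-0.35 to 0.39) against wt/wt and 0.21 (-0.14 to 0.56) against wt/flox, and 18.5%, 29.95% and 20.5% of UMIs expected from hepatocyte RNA in flox/flox, wt/flox and wt/wt. Of 5 measured members 1 was at least 1.5-fold higher and 1 lower against wt/wt, and 2 were higher and 1 lower against wt/flox. Ikzf1, higher in both, reached the 20 UMI minimum only through its flox/flox UMIs. Id2, which these cells need to develop, had 55, 35 and 25 UMIs in flox/flox, wt/flox and wt/wt with 5.96, 12.8 and 2.92 expected, and ratios of 0.27 and 0.25. Ikzf1 (Ikaros) had 17, 8 and 4 UMIs and ratios of 1.22 and 0.69, and Ets1, another lymphoid factor, 20, 8 and 14 UMIs and ratios of -0.35 and 0.92. Zeb2, needed for late NK maturation, had 12, 5 and 2 UMIs. The median over the measured members was -0.35 against the wt/wt library, of other sign than the sum.

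Conventional NK and ILC1 features were counted per barcode. With Eomes, Ly49 genes, Itga2, Itgam, S1pr5 and Cma1 as the conventional set and Itga1, Cxcr6, Tnfsf10, Il7r, Cd200r1, Inpp4b, Cxcr3 and Zfp683 as the ILC1 set, 71 barcodes held only the conventional set, 37 only the ILC1 set, 5 both and 78 neither. The 2 sets were chosen after their values were seen, and 3 genes of the conventional set (Eomes, Klra8 and Klra4) also admitted barcodes, so part of this split is fixed by the rule. Without those 3 genes 38 barcodes held only the conventional set, 39 only the ILC1 set, 3 both and 111 neither. Barcodes with only the ILC1 set made up 24.7% of flox/flox (15.8 to 35.5%), 17.7% of wt/flox (9.20 to 29.5%) and 12.5% of wt/wt (4.73 to 25.2%), and the intervals overlapped. An ILC1 set gene was also seen in 3.02%, 2.27% and 1.76% of hepatocyte-reference barcodes, in the same order of libraries. Barcodes with only the conventional set made up 38.3%, 37.1% and 35.4% in flox/flox, wt/flox and wt/wt.

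As a description, since Gzma too admitted barcodes, barcodes holding that set had 1.26 Gzma UMIs each in flox/flox, 1.79 in wt/flox and 3.00 in wt/wt, and barcodes with only the ILC1 set had 0.35, 1.09 and 0.83. The full ILC1 list had 84, 46 and 29 UMIs and a ratio of 0.67 (0.04 to 1.33) against wt/wt and 0.47 (-0.07 to 1.02) against wt/flox, with 28.7%, 33.0% and 34.6% expected from hepatocyte RNA. The conventional NK list had 0.25 (-0.18 to 0.70) and 0.07 (-0.31 to 0.45), with medians of other sign, at -0.33 and -0.40.

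**Figure D3:**
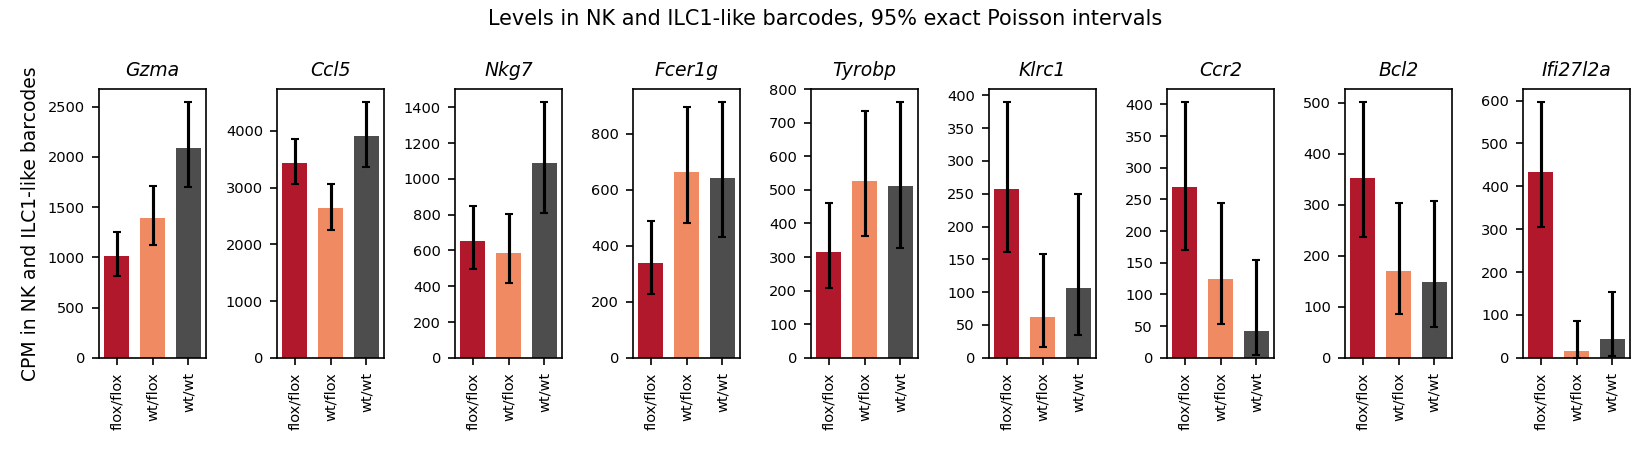
Bars give CPM summed over NK and ILC1-like barcodes in the flox/flox, wt/flox and wt/wt libraries for 9 genes, each on its own scale; error bars are exact 95% Poisson intervals. Gzma stood at 1019, 1391 and 2092 CPM; Fcer1g was lowest and Klrc1 and Ifi27l2a highest in flox/flox.

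Adhesion and trafficking genes differed mostly by their low level in wt/flox. The list had 2459 CPM in flox/flox, 1885 in wt/flox and 2668 in wt/wt, with ratios of -0.12 (-0.44 to 0.21) for flox/flox against wt/wt and 0.38 (0.05 to 0.72) against wt/flox. Of 9 measured members 2 were at least 1.5-fold higher and 2 lower against wt/wt, and 5 higher and 0 lower against wt/flox. For wt/flox against wt/wt the ratio was -0.50 (-0.87 to -0.13), with 1 member higher and 5 lower, against 19.2% and 18.8% of all measured genes. Without the mixed barcodes it was -0.32 (-0.72 to 0.09). Coro1a, an actin regulator, had 22, 10 and 13 UMIs in flox/flox, wt/flox and wt/wt, and Selplg, the gene of P-selectin ligand, 16, 10 and 14. Cytoskeleton and lymphocyte housekeeping genes had ratios of 0.15 (0.02 to 0.28) against wt/wt and 0.15 (0.03 to 0.27) against wt/flox. Among their 21 measured members S100a6 had 33, 14 and 9 UMIs and S100a4 19, 4 and 2, and Ptprcap, whose product associates with CD45, had 11, 20 and 14.

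Type I interferon response genes had, with all qualifying barcodes kept, the largest difference among the 19 lists that was measured on over 100 UMIs in flox/flox; without the mixed barcodes the DNA replication and mitosis list stood higher against wt/wt, at 1.18 beside 0.96. They held 439 UMIs in flox/flox, 176 in wt/flox and 113 in wt/wt, or 5140, 2719 and 2412 CPM. The summed log2 ratio was 1.09 (0.79 to 1.40) for flox/flox against wt/wt, 0.92 (0.66 to 1.18) against wt/flox and 0.17 (-0.18 to 0.53) for wt/flox against wt/wt. Of 10 measured members 7 were at least 1.5-fold higher and 1 lower against wt/wt, and 7 higher and 0 lower against wt/flox. Over all measured genes 21.2% were higher and 20.6% lower against wt/wt, and 20.4% and 18.8% against wt/flox. The median over the 10 members was 1.01 and 0.76, beside -0.02 and -0.04 over all measured genes. Ifi27l2a and Trim30a reached the 20 UMI minimum only through their flox/flox UMIs, so these counts and medians are partly set by that minimum. A further 36 list genes fell under the minimum and had 146, 42 and 39 UMIs between them in flox/flox, wt/flox and wt/wt.

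Hepatocyte RNA moved with that list. Of its UMIs 53.1% in flox/flox, 58.0% in wt/flox and 44.5% in wt/wt were expected from hepatocyte RNA, and the list had ratios of 1.59 and 1.09 in hepatocyte-reference barcodes. With the expected hepatocyte UMIs taken away, the ratio was 0.45 against wt/wt and 0.57 against wt/flox. No interval is given for these, because the counting error of the UMIs taken away was not carried through. The subtraction also shifted the median of all measured genes to -0.35 and -0.27, and relative to it the list stood at 0.80 and 0.84. Beyond that subtraction, the part of hepatocyte RNA in the difference was not tested. In T barcodes the ratios as counted were 0.95 (0.83 to 1.07) and 0.79 (0.70 to 0.89). Within the list, 6 measured genes had under 50% of their UMIs expected from hepatocyte RNA. Together they held 101 UMIs in flox/flox, 31 in wt/flox and 23 in wt/wt, or 1183, 479 and 491 CPM. Among them, Ifi27l2a and Trim30a reached the minimum for measured genes only through their flox/flox UMIs. Ifi27l2a supplied 37, 1 and 2 of these UMIs, and 10, 1 and 2 without the mixed barcodes described below. The sum is thus partly set by that minimum and by mixed barcodes, and no difference between libraries is read from it.

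Single members differed in how much hepatocyte RNA could supply. Ifitm3, which blocks viral entry at endosomes, had 83, 51 and 18 UMIs in flox/flox, wt/flox and wt/wt, with 77.8, 48.2 and 23.8 expected from hepatocyte RNA. Bst2 (tetherin) had 19, 18 and 8, with 17.4, 11.98 and 5.88 expected. For Ly6e, a surface protein gene that interferon induces, 64, 28 and 22 UMIs were counted and 44.5, 10.7 and 5.96 expected. Trim30a (chr7:104409025-104465193, mm10), an interferon-induced gene of the tripartite motif family, had 17, 5 and 2 UMIs, with 1.44, 0.24 and 0.06 expected, and log2 ratios of 1.64 against wt/wt and 1.37 against wt/flox. Sp100, a nuclear body gene, had 9, 9 and 8 UMIs, with under 1 expected in each library, and ratios of -0.70 and -0.40. Sensors and classic antiviral genes were sparse: Isg15 had 4, 2 and 3 UMIs, Ifit1 7, 0 and 1, and Rsad2 0, 1 and 0, with 3.45, 0.69 and 0.28, with 3.62, 0.61 and 0.24 and with 1.83, 0.70 and 0.21 expected.

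**Figure D4:**
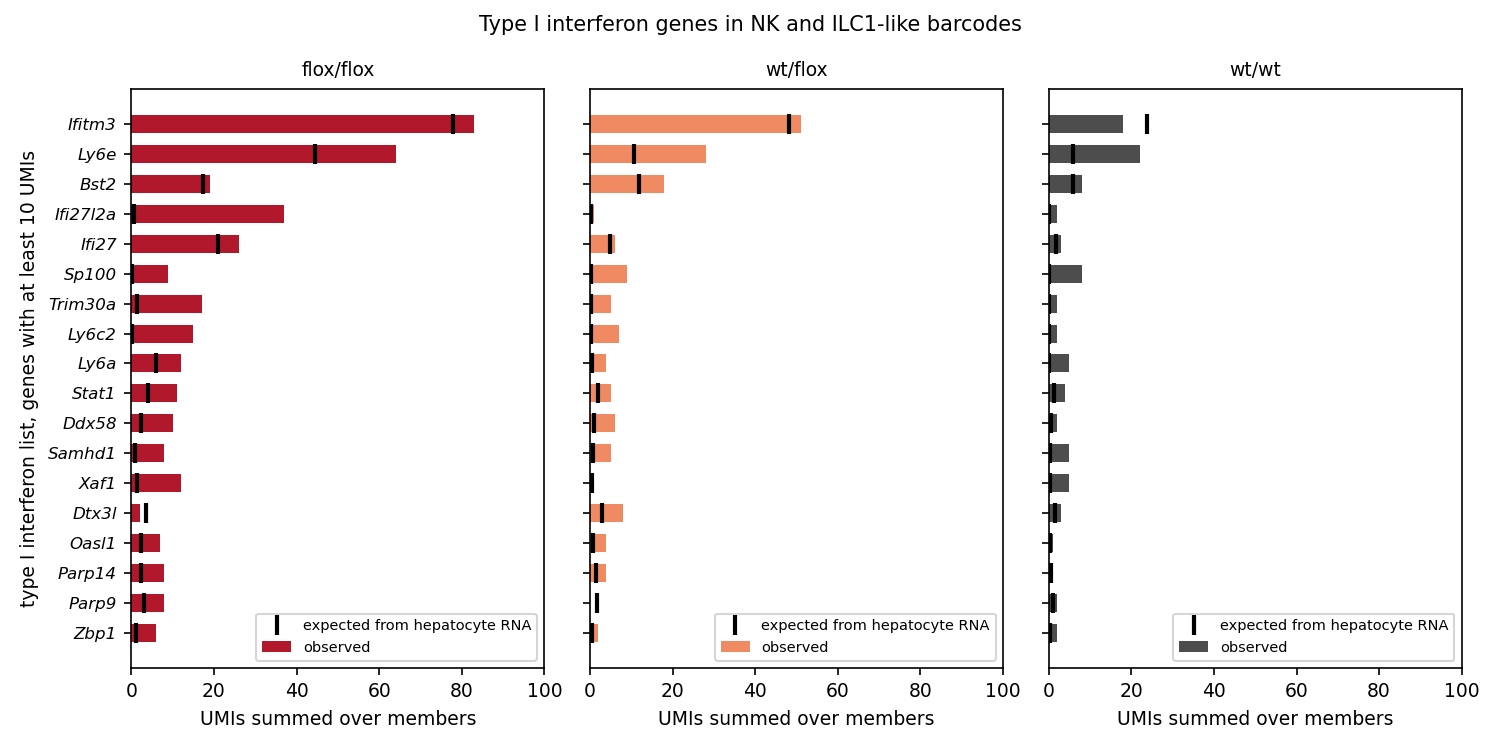
Bars give the UMIs of type I interferon list genes with at least 10 UMIs in all, summed over NK and ILC1-like barcodes of the flox/flox (left), wt/flox (middle) and wt/wt (right) libraries; black marks give the UMIs expected from hepatocyte RNA. Ifitm3 sat close to its mark in flox/flox and wt/flox, whereas Ifi27l2a, Trim30a and Sp100 stood above theirs in flox/flox.

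Promoters of Trim30a and Ifitm3 are shown, chosen after their values were seen, as a list member with few of its UMIs expected from hepatocyte RNA and one with nearly all. They are RefSeq sequences (GRCm38.p6) from 250 bases before to 50 after a start site, on the minus strand, at chr7:104465144-104465443 for Trim30a and chr7:141010695-141010994 for Ifitm3. Capitals mark letters that match the interferon-stimulated response element in its short form, TTTC, 2 free letters and TTTC again, or GAAA, 2 free letters and GAAA on the other strand, with overlaps allowed. For Trim30a the start site shown is the outer one of those in the table.
Trim30a: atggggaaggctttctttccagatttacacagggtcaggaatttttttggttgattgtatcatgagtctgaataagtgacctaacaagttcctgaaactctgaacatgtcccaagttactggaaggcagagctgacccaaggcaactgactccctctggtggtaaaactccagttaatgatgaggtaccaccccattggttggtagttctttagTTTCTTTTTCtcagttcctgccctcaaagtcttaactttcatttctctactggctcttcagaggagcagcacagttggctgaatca
Ifitm3: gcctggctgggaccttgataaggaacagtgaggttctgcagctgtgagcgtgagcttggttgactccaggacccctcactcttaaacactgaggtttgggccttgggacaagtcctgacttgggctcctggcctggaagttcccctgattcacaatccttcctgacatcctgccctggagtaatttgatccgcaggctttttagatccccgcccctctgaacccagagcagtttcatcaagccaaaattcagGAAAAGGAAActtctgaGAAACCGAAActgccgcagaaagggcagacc
The match in Trim30a begins at position -36 from the start site, and those in Ifitm3 at +3 and +20. Such a match was present in 3.44% of 32851 promoters of the same length and in 19 of 42 promoters of type I interferon list genes (45.2%), or, by gene, in 3.99% of 27025 genes and in 17 of the 34 list genes found in the table (50%). Of 5 measured list genes with a promoter there, Bst2 also held 2 overlapping matches, and Ly6c2 and Sp100, the gene with under 1 expected UMI in each library, held none. A match describes letters in this window and is not evidence of a bound factor.

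Ifi27l2a (chr12:103442167-103443680, mm10), an interferon-induced mitochondrial protein gene, had the largest ratio of the list and rested on few barcodes. It had 37 UMIs in 13 flox/flox barcodes, 1 UMI in 1 wt/flox barcode and 2 UMIs in 2 wt/wt barcodes, and 18 of the 37 lay in 1 barcode. Without barcodes that held myeloid, class II or plasma cell transcripts, it had 10, 1 and 2 UMIs in 8, 1 and 2 barcodes. Its log2 ratio against wt/wt was 2.76 (1.39 to 6.44) with all barcodes, 0.99 (-0.66 to 4.80) without these and -0.00059 (-1.75 to 7.21) with at least 2 UMIs of the 8 genes required. Among T barcodes it was seen in 36.9%, 20.2% and 14.1% in flox/flox, wt/flox and wt/wt, above its 16.05%, 1.61% and 4.17% in NK and ILC1-like barcodes. In hepatocyte-reference barcodes it was seen in 1.09%, 0.394% and 0.184%.

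Interferon gamma response genes had ratios of 0.59 (0.10 to 1.09) against wt/wt and 0.36 (-0.05 to 0.78) against wt/flox. Of 3 measured members 2 were at least 1.5-fold higher and 0 lower against wt/wt, and 1 higher and 0 lower against wt/flox. Iigp1, an immunity-related GTPase gene, supplied 67, 26 and 20 of the 134, 79 and 49 UMIs in flox/flox, wt/flox and wt/wt, with 42.7, 27.4 and 13.2 of its own expected from hepatocyte RNA. With the expected UMIs taken away the list ratios were 0.01 and -0.02, and 0.36 and 0.25 relative to the shifted median of all measured genes. The median over the measured members against the wt/flox library was -0.40, of other sign than the sum. MHC class I presentation genes had 0.25 (0.04 to 0.46) and 0.14 (-0.05 to 0.32), with 1 of 10 measured members higher and 0 lower in each comparison and 44.3%, 43.6% and 34.6% of UMIs expected from hepatocyte RNA in flox/flox, wt/flox and wt/wt. B2m, the light chain of class I molecules, had 203, 119 and 62 UMIs, with 117, 80.3 and 38.1 expected, and H2-D1, a heavy chain gene read by Ly49 receptors, had 66, 50 and 44, with 16.5, 9.88 and 6.00 expected.

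**Figure D5:**
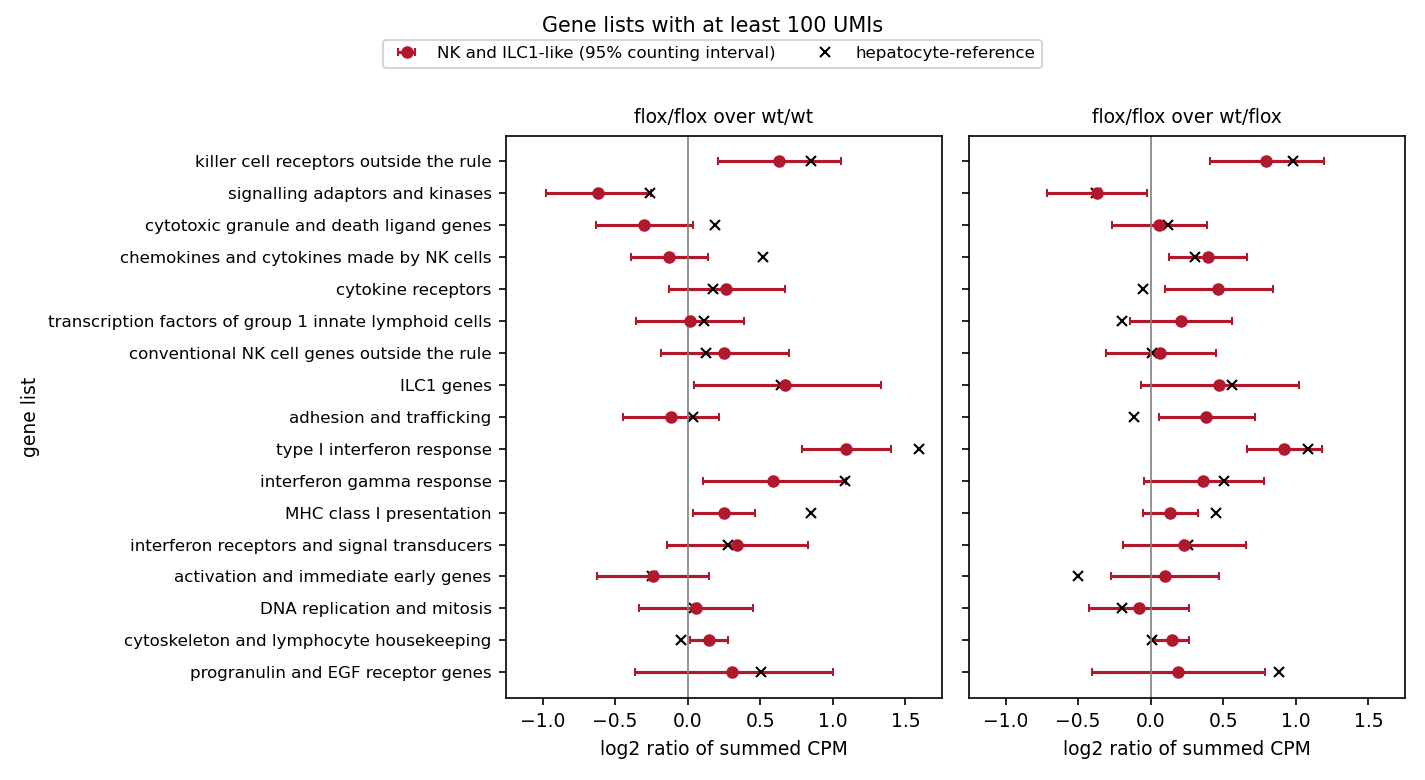
Points give the log2 ratio of summed CPM in NK and ILC1-like barcodes for flox/flox against wt/wt (left) and against wt/flox (right), with exact 95% counting intervals, for gene lists with at least 100 UMIs; crosses give the same ratio in hepatocyte-reference barcodes. Type I interferon genes stood at 1.09 and 0.92 beside 1.59 and 1.09 in hepatocyte-reference barcodes, and signal adaptors at -0.62 and -0.37.

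Among genes ranked by the smaller of their ratios over both other libraries, with genes near their hepatocyte level left out, the first were those of other cell types. Igkc had 440, 0 and 3 UMIs in flox/flox, wt/flox and wt/wt, Igha 103, 0 and 0, and Jchain 40, 0 and 0, and in flox/flox each lay in a single barcode. The class II genes H2-Aa, with 24, 3 and 4 UMIs, and H2-Eb1, with 27, 6 and 6, came from 5, 1 and 2 and from 7, 1 and 2 barcodes. Ccr2, the receptor of the chemokine CCL2, which both monocytes and NK cells carry, had 23, 8 and 2 UMIs in 15, 8 and 2 barcodes and ratios of 2.07 (0.64 to 5.79) and 1.12 (-0.09 to 2.49). Bcl2, the survival gene, had 30, 11 and 7 UMIs in 25, 11 and 6 barcodes and ratios of 1.23 (0.02 to 2.66) and 1.05 (0.01 to 2.19). In T barcodes Bcl2 had ratios of 0.17 and 1.45. The other genes of this rank were Nsd1, Prpf38b and Eif3e, with 18 to 23 UMIs in flox/flox, of whose UMIs 27.2%, 18.2% and 39.0% were expected from hepatocyte RNA over the 3 libraries, and Klrc1 and Ifi27l2a described above. All genes of this rank were named for their ratios and reached the 30 UMI minimum only through their flox/flox UMIs. Their intervals do not allow for that choice, so no difference is read from them.

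Genes lower in flox/flox than in both others by the same rank were led by Ptprcap (-1.21 and -1.26 against wt/wt and wt/flox), the transcription initiation gene Taf10 (-1.06 and -1.76), the ubiquitin ligase gene Znrf2 (-1.19 and -0.99) and Fcer1g. They were followed by Ugcg, which makes glucosylceramide (-0.75 and -0.95), the elongation factor gene Eef1d (-1.53 and -0.72), Tyrobp, Bclaf1, Diaph1, Pum2, Pbrm1 and Irf8, a factor of NK and dendritic cells (-0.58 and -0.53). Those from Bclaf1 on had 9 to 14 UMIs in each library. Over the 3 libraries, hepatocyte RNA would supply 45.5% of the UMIs of Taf10, 45.1% of Znrf2, 41.0% of Eef1d, 37.5% of Pbrm1, 32.8% of Bclaf1, 28.9% of Pum2 and 22.9% of Diaph1, but under 5% of those of Ptprcap, Fcer1g, Tyrobp, Ugcg and Irf8. Between wt/flox and wt/wt, the highest ratios were those of H2-Ab1 and Cst3 (1.86 each), where 1 barcode held all 15 wt/flox UMIs of H2-Ab1 and 1 barcode held 23 of the 35 wt/flox UMIs of Cst3, which stood at 0.37 (-1.09 to 1.96) without it, and of Mxd4, Arpc3, Nsd3 and Tnrc6b (1.41 to 1.53). The lowest were Msn, a membrane-cytoskeleton linker with 24, 4 and 12 UMIs in flox/flox, wt/flox and wt/wt (-2.05 for wt/flox against wt/wt), Celf2 (-1.79), Stat3 (-1.58), Capzb (-1.58), Snrpd2 (-1.55) and Efhd2 (-1.47). Of the UMIs of Stat3 40.7% were expected from hepatocyte RNA, of Snrpd2 40.9%, of Capzb 29.3%, of Cst3 25.9% and of Mxd4, Arpc3, Nsd3 and Tnrc6b 27.5 to 28.5%, but of Msn 1.41%.

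Mixed barcodes, taken here as those with myeloid, class II or plasma cell RNA, were a minority. Hepatocyte RNA and T cell markers are not part of that count. Of 10 myeloid, class II and plasma cell genes at least 1 was seen in 10 of 81 flox/flox barcodes (12.3%, 6.08 to 21.5%), 2 of 62 in wt/flox (3.23%, 0.393 to 11.2%) and 4 of 48 in wt/wt (8.33%, 2.32 to 19.98%). Hepatocyte RNA would supply 35.2, 25.8 and 15.6 UMIs of monocyte or macrophage markers in flox/flox, wt/flox and wt/wt. These markers summed to 114, 42 and 18 UMIs, 10 of 10 detected. Of these Fn1, which hepatocytes also make, had 38, 13 and 10 UMIs, with 29.6, 22.2 and 13.2 expected from hepatocyte RNA, and Lyz2 had 17, 8 and 0, in 3, 1 and 0 barcodes. Without the mixed barcodes the type I interferon ratio was 0.96 against wt/wt and 0.83 against wt/flox. Klrc1 had 21, 4 and 2 UMIs and Fcer1g 23, 37 and 23 without them, and the adaptor list had ratios of -0.57 and -0.39.

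DNA replication and mitosis genes had 161 UMIs in flox/flox, 129 in wt/flox and 85 in wt/wt, and ratios of 0.06 (-0.33 to 0.45) against wt/wt and -0.08 (-0.42 to 0.27) against wt/flox. These rested on the mixed barcodes: without them the list had 145, 102 and 38 UMIs and ratios of 1.18 (0.66 to 1.74) and 0.29 (-0.08 to 0.67), and wt/flox against wt/wt stood at 0.89. Hmgb2, a chromatin protein gene of dividing cells, had 37, 34 and 24 UMIs in 17, 13 and 7 barcodes of flox/flox, wt/flox and wt/wt. Of these 95 UMIs 18 lay in 1 barcode. Mki67 had 10, 4 and 3 UMIs. Activation and immediate early genes stood at -0.24 (-0.62 to 0.14) and 0.10 (-0.28 to 0.47), and hepatocyte RNA would supply 27.8%, 51.5% and 33.0% of their UMIs in flox/flox, wt/flox and wt/wt. Interferon receptors and signal transducers, with 26.2%, 31.4% and 32.3% expected, had 0.34 (-0.14 to 0.83) and 0.23 (-0.19 to 0.65), with Ifngr1, a chain of the interferon gamma receptor, at 21, 10 and 9 UMIs. Double-stranded RNA sensing genes summed to 29, 22 and 10 UMIs, with 35.7%, 28.2% and 35.0% expected, and inhibitory and exhaustion genes to 14, 13 and 4, with 0 measured members in either list. Of genes named in the study's title, Grn (progranulin) had 8, 5 and 1 UMIs, with 5.78, 3.13 and 2.51 expected from hepatocyte RNA, and Egfr 20, 7 and 9, with 27.9, 10.3 and 11.5 expected.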

How the data were processed

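Single-cell RNA was read with the 10x Genomics 3′ kit, per the labels' protocols, in 1 liver library per Adar1 genotype. The authors deposited whole UMI counts for each gene in each barcode, made with Cell Ranger 6.1.1 per the file headers, and the submitters' processing notes name Seurat and mm10. The authors deposited 10000 barcodes per library, which were thus chosen by number. The number after the hyphen of a barcode gives its library. The members and gene lists were chosen with earlier results of these data known.

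Counts were summed over the qualifying barcodes of a library and given as CPM of that sum (pandas 2.3.3, numpy 2.4.6 and scipy 1.17.1 in Python 3.11.15; figures with matplotlib 3.10.9). With 1 library per group no test or p-value is given: ratios carry exact conditional binomial intervals, CPM Poisson and shares Clopper-Pearson ones, all at 95%. Counts under 3 were set to 3 in ratios, and no ratio is given where both counts are at most 3. Measured genes had at least 20 UMIs over the 3 libraries, so a gene could reach the minimum through 1 library where it was high. UMIs expected from hepatocyte RNA were the profile of hepatocyte-reference barcodes of the same library, scaled to the 12 hepatocyte markers. Shares of barcodes were also computed after thinning to 700 UMIs, which left out 1 qualifying barcode, in flox/flox.

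Named genes were the 8 rule genes, up to 20 leading genes over the rest with at least 50 UMIs, and genes with at least 30 UMIs ranked by the smaller of both ratios (12 higher and 12 lower in flox/flox, 6 and 6 for wt/flox). A ranked gene had to reach 2 times its hepatocyte-reference CPM where it was highest. In each list the genes with most UMIs or extreme ratios were named, and genes outside these rules were chosen after their values were seen, among them list genes under the minimum. Only the ratios and their intervals were tested on simulated counts, for flox/flox against wt/wt. The choice of barcodes and the hepatocyte RNA steps were not tested in this way. Alternative member rules, minimums and scalings are in the closing section.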

Additional observations from a re-analysis of the deposited data

How the results depend on the processing

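No paired analysis was possible because each genotype had 1 library and no test was run. With at least 2 UMIs of the 8 genes required, the NK and ILC1-like shares were 0.460%, 0.403% and 0.344% in flox/flox, wt/flox and wt/wt. As a share of NK, ILC1 and T barcodes, T barcodes with a barred gene included, they were 17.4%, 15.3% and 18.5%. The type I interferon ratio was 0.45 against wt/wt and 0.57 against wt/flox with hepatocyte RNA subtracted. With 2 UMIs required it was 0.65 against wt/flox, and 0.65 for wt/flox against wt/wt. The cytotoxic ratio was -0.74 against wt/wt and -0.41 against wt/flox with hepatocyte RNA subtracted, where the median of all genes was -0.35 and -0.27. The numbers of genes at least 1.5-fold apart were 679, 638 and 613 for flox/flox against wt/wt, flox/flox against wt/flox and wt/flox against wt/wt. In that order they were 327, 332 and 308 with 2 UMIs required, 306, 274 and 239 with 1000 UMIs per barcode, 1211, 1644 and 1155 with a 10 UMI minimum and 149, 150 and 105 with a 50 UMI minimum. The other 108 values of these results stayed within the main intervals or within 1.5 times the main count.

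Of 1108 values of 36 named genes under the alternatives, 1081 stayed within the main interval, 16 left it and 11 were counted as changing sign. A change of sign was counted only where the main ratio was at least 1.5-fold either way. Smaller ratios also changed sign, such as that of Bcl2 for wt/flox against wt/wt, at 0.19 in the main setting and -0.46 at its lowest. With 2 UMIs required, the ratios against wt/wt were -0.00059 for Ifi27l2a, -0.42 for H2-Aa, -0.68 for H2-Eb1 and 0.58 for Pbrm1, and that of Bclaf1 against wt/flox was 0.74. With 1000 UMIs per barcode, Nsd1 and Mxd4 were at -0.27 for wt/flox against wt/wt, and Stat3 and Efhd2 at -0.15 and -0.054 for flox/flox against wt/flox. With a cytotoxic companion or Ptprc required, Cst3 was at 0.42 against wt/flox. Without barcodes of myeloid, class II or plasma cell RNA, an alternative chosen after seeing the data, Cst3 was at -0.24 against wt/wt. In each of these the cause was not tested. Fcer1g stayed between -1.37 and -0.75 against wt/wt, Klrc1 between 0.63 and 2.06, and Ccr2 between 0.32, with 2 UMIs required, and 2.10. Ratios of genes with under about 20 UMIs are limited by depth.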
